A study of Rattus norvegicus with 66 samples.

Results

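The genes described here encode the subunits of the NMDA receptor, Grin1, Grin2a, Grin2b, Grin2c, Grin2d, Grin3a and Grin3b. They were found by symbol in the gene map that accompanies the counts. Each of the 7 symbols matched 1 entry of the 37777 in the count files, of which 29638 had at least 1 count in any library. RNA of dorsal hippocampus came from 64 Long Evans rat pups, 41 males and 23 females, on postnatal day (PND) 6, and was sequenced in 66 libraries. Dams of the feeding controls (CONF, 4 male and 5 female pups) ate soy-free chow, and dams of the injection controls (CONSC, 5 and 5) were injected subcutaneously with the vehicle alone, which the labels call saline and the study's methods DMSO. Aroclor 1254, a mixture of polychlorinated biphenyls, was given to the dam in chow at 0.5 mg/kg (Aro0.5, 4 males) or 5 mg/kg (Aro5, 6 males and 5 females). Bisphenol A, a plastics monomer, was given in the same way at 0.5 mg/kg (BPA0.5, 4 males) or 5 mg/kg (BPA5, 7 males and 4 females), both from before mating through pregnancy and lactation. Chlorpyrifos, an organophosphate insecticide, was injected subcutaneously into the dam during pregnancy and lactation at 1 mg/kg (CPF1, 4 males) or 3 mg/kg (CPF3, 7 males and 4 females). Pups were thus exposed through the dam, and some were littermates. The dissected piece also held some cortical tissue beside the hippocampus, and the whole piece is measured, so that fewer cells of a type and less RNA per cell cannot be told apart.

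NMDA receptors are glutamate-gated channels that pass calcium and need glycine or D-serine as a co-agonist, and magnesium blocks them at rest. Every receptor holds GluN1, from Grin1, which binds the co-agonist, together with GluN2 subunits, which bind glutamate, or GluN3 subunits, which bind glycine. GluN2B prevails in the newborn hippocampus and GluN2A is added as synapses mature, GluN2D is an early subunit found in interneurons and the diencephalon, GluN2C is best known from cerebellum and glia, and GluN3A is at its height in early postnatal life.

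Promoter sequences of 4 of the 7 genes were found by gene number in RefSeq tables of the build GRCr8. None was found there for Grin2a, Grin2b or Grin3b. Of the 4 shown, Grin1, Grin2c and Grin2d were called higher in control females than in control males, while Grin3a did not pass that test. Whether these sequences bear on that difference was not tested. Each line holds the 250 bases before the annotated start on the minus strand, 5′ to 3′. Capitals mark any match, on either strand, to the GC box GGGCGG, the nuclear receptor motif AGGTCA, the cyclic AMP response element TGACGTCA or the E-box CACGTG.
Grin1, chr3:28528755-28529004: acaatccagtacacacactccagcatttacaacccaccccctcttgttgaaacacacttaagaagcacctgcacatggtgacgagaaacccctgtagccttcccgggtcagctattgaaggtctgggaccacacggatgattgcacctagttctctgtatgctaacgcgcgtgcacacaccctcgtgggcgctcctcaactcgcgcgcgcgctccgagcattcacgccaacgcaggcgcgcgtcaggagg
Grin2c, chr10:101005139-101005388: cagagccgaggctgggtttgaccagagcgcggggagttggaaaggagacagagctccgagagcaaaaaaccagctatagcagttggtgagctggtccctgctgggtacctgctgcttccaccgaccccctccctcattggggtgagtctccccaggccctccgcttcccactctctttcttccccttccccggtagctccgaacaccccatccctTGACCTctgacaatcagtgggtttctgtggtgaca
Grin2d, chr1:105481237-105481486: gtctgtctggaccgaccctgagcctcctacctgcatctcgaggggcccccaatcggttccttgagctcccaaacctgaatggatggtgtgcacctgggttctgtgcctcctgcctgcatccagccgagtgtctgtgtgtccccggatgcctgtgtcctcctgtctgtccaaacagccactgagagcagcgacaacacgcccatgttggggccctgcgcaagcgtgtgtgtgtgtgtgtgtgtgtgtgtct
Grin3a, chr5:69001559-69001808: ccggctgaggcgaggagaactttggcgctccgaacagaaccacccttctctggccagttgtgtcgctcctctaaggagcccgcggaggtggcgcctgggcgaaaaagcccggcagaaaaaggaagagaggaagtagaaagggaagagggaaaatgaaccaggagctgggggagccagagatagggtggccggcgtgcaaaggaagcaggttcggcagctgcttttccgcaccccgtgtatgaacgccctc
The nuclear receptor motif stood once in the Grin2c window, on the other strand, so that it is printed as its reverse complement. None of the letters searched stood in the other windows. Of 33469 promoters of the same length, 30.5% held the GC box, 14.1% the nuclear receptor motif, 1.59% the response element and 5.59% the E-box. The bases G and C made up 57.6% of the Grin1, 59.6% of the Grin2c, 60.4% of the Grin2d and 60.4% of the Grin3a window, against a median of 51.2% over all promoters. The counts rest on another build, Rnor_6.0, and carry no coordinates.

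Library totals ranged from 10644138 to 86206550 counts, with a median of 20740650. Library names have 2 forms, called A and B here, and what they stand for is not stated. Control names of form A join group and litter by a low line (_), and those of form B do not. Male names of form A end in Y and those of form B in y. High-dose male names hold the low line too, so that their place in form B rests on the y alone. Form B is that of all 20 libraries of high-dose males and of 1 control male library. Form A is that of the other 9 control male libraries and of the 12 at a low dose, so that form and high dose cannot be told apart in males. Control females split into 5 of form A and 6 of form B. Names of the 13 high-dose female libraries hold the low line, as form A does, but were assigned to neither form. By the dissection times in the labels, 11 libraries (8 male) fall outside the window from 10.30 to 13.20 h in the study's methods. Male CONF N2-2y and female CONF N4-3x were each sequenced in 2 libraries, whose counts were summed. The libraries of N2-2y differed in the members. Grin1 was at 161 counts per 1000000 counts of the library (CPM) in form A and 227 in form B, Grin2d at 40.1 and 60.7 CPM, Grin2c at 7.83 and 13.1 CPM, and Grin3a at 53.3 and 40.0 CPM. Those of N4-3x, whose labels give different dissection times, were closer, with Grin1 at 282 and 301 CPM. Markers of hippocampal neurons (Prox1, Zbtb20, Fibcd1, Wfs1, Grik4, Neurod6 and Lmo4) summed to 266 to 544 CPM per pup. Those of neocortex (Cux1, Cux2, Tbr1, Rorb and Fezf2) summed to 225 to 559 CPM and those of thalamus (Tcf7l2, Lhx9, Gbx2, Slc17a6, Rora, Prkcd and Lef1) to 132 to 1309 CPM.

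Grin1 was read in every pup, with 131 to 345 CPM and a median of 227 over the 64 pups. The 5 female groups had the highest means, which in CPM ± SD over the pups of a group were 295 ± 36.0 in Aro5, 284 ± 6.18 in BPA5, 275 ± 18.6 in CONF, 267 ± 24.3 in CPF3 and 260 ± 34.7 in CONSC. The 8 male groups followed with means of 216 ± 33.6 in BPA5, 214 ± 14.4 in CPF1, 209 ± 40.5 in Aro5, 208 ± 15.5 in CONSC, 202 ± 12.6 in CONF, 202 ± 35.1 in CPF3, 197 ± 23.2 in Aro0.5 and 181 ± 43.7 in BPA0.5. The step from CONSC females down to BPA5 males was the only 1 of 12 between neighbouring groups that exceeded the SD of both. Of the members tested, Grin1 varied least between pups, with a pooled within-group SD of 0.20 on the log2 scale.

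Grin2a, the GluN2A gene, ranged from 1.23 to 8.33 CPM with a median of 4.10. It rested on 24 to 381 counts per pup and varied most, with a pooled within-group SD of 0.52 (log2). Its means over females, in CPM ± SD, were 5.90 ± 2.23 in CONF, 5.28 ± 2.41 in BPA5, 5.16 ± 1.25 in CPF3, 4.00 ± 1.92 in Aro5 and 3.87 ± 2.16 in CONSC. Over males they were 5.51 ± 2.02 in Aro5, 4.68 ± 1.63 in BPA5, 4.27 ± 1.44 in CPF3, 4.07 ± 1.23 in CONF, 3.22 ± 0.963 in CONSC, 3.06 ± 1.34 in BPA0.5, 3.03 ± 0.862 in CPF1 and 2.69 ± 0.973 in Aro0.5. The sexes were interleaved in this order, and no step between neighbouring groups exceeded the SD of both. Grin2b, the GluN2B gene, ranged from 6.20 to 17.1 CPM with a median of 8.91, on 80 to 771 counts per pup. In females the means, in CPM ± SD, were 12.6 ± 3.49 in BPA5, 11.8 ± 2.58 in CONF, 10.6 ± 1.85 in Aro5, 10.1 ± 2.23 in CPF3 and 9.41 ± 2.22 in CONSC. In males they were 9.89 ± 2.08 in Aro5, 9.59 ± 2.00 in CPF3, 8.73 ± 2.48 in CONSC, 8.67 ± 1.32 in CONF, 8.60 ± 1.53 in BPA5, 8.38 ± 0.764 in BPA0.5, 7.93 ± 0.830 in CPF1 and 6.76 ± 0.270 in Aro0.5. The 4 highest means were those of female groups. The step from CPF1 males (7.93 ± 0.830 CPM, SD, n = 4) to Aro0.5 males was the only one that exceeded the SD of both neighbours. The pooled within-group SD of Grin2b was 0.27 (log2).

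Grin2c ranged from 3.41 to 30.0 CPM with a median of 11.7 and a pooled within-group SD of 0.49 (log2). Its highest group mean, 18.2 ± 9.45 CPM (SD, n = 5) in Aro5 females, rested on pups at 8.30, 13.0, 13.3, 26.6 and 30.0 CPM. Its lowest was 9.60 ± 5.23 CPM (SD, n = 7) in CPF3 males. Means over the female groups, in CPM ± SD, were 18.2 ± 9.45 in Aro5, 14.99 ± 1.46 in CONF, 13.7 ± 3.02 in CONSC, 12.8 ± 2.84 in BPA5 and 11.9 ± 1.80 in CPF3. Those over the male groups were 14.1 ± 8.26 in Aro0.5, 13.1 ± 3.88 in BPA0.5, 11.2 ± 4.37 in CPF1, 11.2 ± 1.35 in CONF, 10.9 ± 1.64 in Aro5, 10.6 ± 2.62 in CONSC, 9.88 ± 4.00 in BPA5 and 9.60 ± 5.23 in CPF3. No neighbouring groups differed by more than the SD of both. Grin2d ranged from 34.5 to 116 CPM with a median of 63.0 and a pooled within-group SD of 0.33 (log2). As for Grin1, the 5 female groups stood above the 8 male groups, from 104 ± 15.4 CPM (SD, n = 4) in BPA5 females down to 49.6 ± 10.2 CPM (SD, n = 6) in Aro5 males. The female means, in CPM ± SD, were 104 ± 15.4 in BPA5, 92.1 ± 8.39 in Aro5, 79.1 ± 12.1 in CONF, 77.4 ± 13.6 in CONSC and 77.2 ± 25.9 in CPF3. The male means were 68.0 ± 23.7 in BPA5, 66.4 ± 10.8 in Aro0.5, 61.1 ± 15.3 in CPF1, 58.4 ± 8.49 in CONSC, 58.0 ± 19.8 in CPF3, 54.3 ± 4.89 in CONF, 51.7 ± 13.0 in BPA0.5 and 49.6 ± 10.2 in Aro5. The step from Aro5 females (92.1 ± 8.39 CPM, SD, n = 5) to CONF females (79.1 ± 12.1 CPM, SD, n = 5) was the only one above the SD of both neighbours.

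Grin3a ranged from 21.7 to 71.1 CPM, with a median of 44.9 and a pooled within-group SD of 0.34 (log2). Its group means lay close together, from 40.2 ± 11.7 CPM (SD, n = 4) in BPA0.5 males to 52.9 ± 13.2 CPM (SD, n = 4) in BPA5 females. Female groups had means, in CPM ± SD, of 52.9 ± 13.2 in BPA5, 47.5 ± 4.85 in CONF, 43.0 ± 15.8 in CONSC, 42.6 ± 6.54 in Aro5 and 42.5 ± 12.9 in CPF3. Male groups had means of 49.6 ± 8.93 in CPF3, 49.0 ± 15.4 in Aro5, 47.7 ± 8.03 in BPA5, 46.6 ± 10.8 in CONSC, 45.9 ± 11.1 in CONF, 41.9 ± 4.67 in CPF1, 41.6 ± 3.09 in Aro0.5 and 40.2 ± 11.7 in BPA0.5. Males and females were mixed in this order, and no neighbours differed by more than the SD of both. Grin3b, which encodes the other GluN3 subunit, was near the limit of detection. It had 53 counts in all libraries together, 0 counts in 34 of the 64 pups and at most 6 in any pup. The filter on low counts removed it from every comparison, so that 6 of the 7 members were tested. Levels were not compared between genes, since transcript lengths were not used here.

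**Figure D1:**
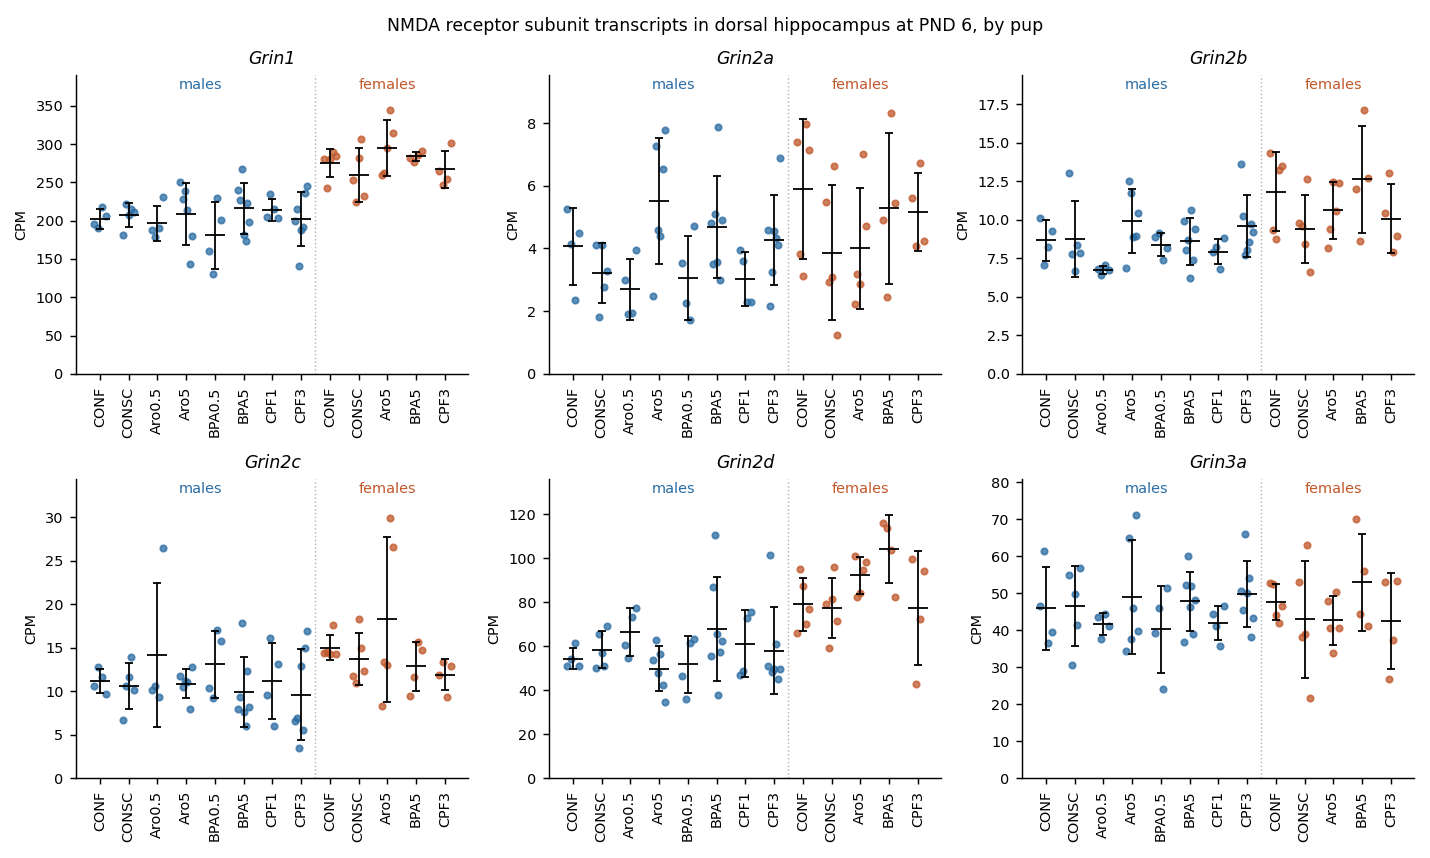
CPM of 6 members in each of the 64 pups (points), by group, with the mean and SD of each group in black. Grin1 and Grin2d of the 5 female groups, to the right of the dotted line, had higher means than those of the 8 male groups, while Grin2a and Grin2c spread widely within groups.

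The balance of Grin2b to Grin2a, which falls as hippocampal synapses mature, was taken as the ratio of their counts within each pup. It needs no scaling by library size, but holds a constant factor for the lengths of the transcripts. Grin2b had more counts than Grin2a in all 64 pups, and the ratio ranged from 1.17 in a CPF3 female to 5.37 in a CONSC female, with a median of 2.32. CONF males had ratios of 1.70, 1.92, 2.06 and 3.48, and CONSC males of 1.62, 2.39, 3.00, 3.18 and 4.27. CONF females had ratios of 1.66, 1.89, 1.94, 2.43 and 2.79, and CONSC females of 1.78, 1.91, 2.73, 3.28 and 5.37. Injection controls thus held the highest ratio of either sex, but the ranges of the 2 kinds of controls overlapped. On the log2 scale the balance was 1.32 ± 0.49 (SD, n = 9) in control males and 1.27 ± 0.52 (SD, n = 10) in control females.

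Ratios in the lower-dose males spanned nearly the range of the controls. They were 1.71, 2.28, 3.38 and 3.62 in Aro0.5, 1.74, 2.49, 4.04 and 4.32 in BPA0.5, and 2.00, 2.29, 2.97 and 3.81 in CPF1. In the high-dose males the lowest, median and highest ratios were 1.34, 1.87 and 2.75 in Aro5, 1.35, 1.91 and 2.48 in BPA5, and 1.34, 2.37 and 4.74 in CPF3. The lowest Aro5 ratios, 1.34 and 1.37, were those of the littermates 120-2y and 120-1y. No ratio in Aro5 or BPA5 males exceeded 2.75, which 4 of the 9 control males did. Of these controls, only N4-7y, at 3.48, was a CONF male fed chow as Aro5 and BPA5 dams were, and the others were CONSC. On the log2 scale the mean was 1.14 ± 0.46 (SD, n = 4) in CONF males. It was 0.91 ± 0.44 (SD, n = 6) in Aro5 and 0.93 ± 0.30 (SD, n = 7) in BPA5 males. In females the ratios were 1.51, 2.62, 2.97, 3.68 and 4.33 in Aro5, 2.05, 2.34, 2.45 and 3.49 in BPA5, and 1.17, 1.86, 2.12 and 3.20 in CPF3. All of these ranges overlapped that of the controls of the same sex.

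None of 12 comparisons of the log2 balance passed a 2-sided exact permutation test after Benjamini-Hochberg adjustment over the 12. The largest differences against male controls were -0.40 in Aro5 males (SE 0.24, exact p = 0.128, adjusted p = 0.766) and -0.39 in BPA5 males (SE 0.20, exact p = 0.0846, adjusted p = 0.766). CPF3 males differed from controls by -0.10 (exact p = 0.713), Aro0.5 males by 0.08 (exact p = 0.785), BPA0.5 males by 0.24 (exact p = 0.462) and CPF1 males by 0.11 (exact p = 0.706). Against female controls the differences were 0.24 in Aro5 (exact p = 0.433), 0.07 in BPA5 (exact p = 0.827) and -0.30 in CPF3 females (exact p = 0.370). CONSC differed from CONF by 0.32 in males (exact p = 0.357) and by 0.40 in females (exact p = 0.254), and control females from control males by -0.05 (exact p = 0.847). The adjusted p of these 10 comparisons was 0.791 or 0.847. The male contrasts share the same 9 controls and the female contrasts the same 10. The 2 libraries of N2-2y, which differed in several members, had nearly the same log2 balance, 0.94 and 0.95.

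**Figure D2:**
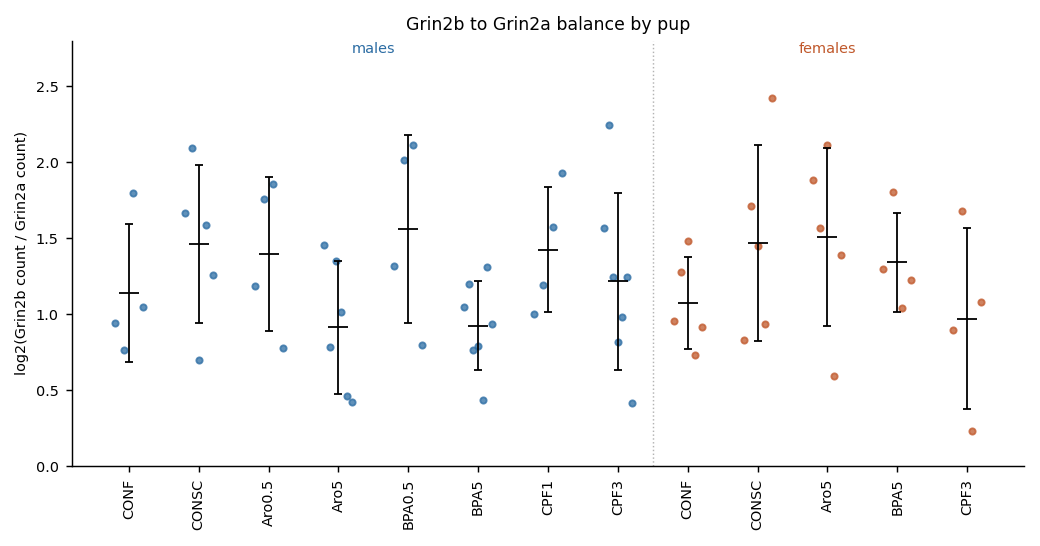
log2 of the ratio of Grin2b to Grin2a counts in each of the 64 pups (points), by group, with the mean and SD of each group in black. Every pup lies above 0, and each treated group overlaps the controls of its sex.

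High-dose males were compared with the 9 male controls across 16393 genes. The test was the quasi-likelihood test of edgeR, and genes with a Benjamini-Hochberg adjusted p under 0.05 are called changed. No member was called in Aro5, BPA5 or CPF3 males. The respective shares of all genes called were 0.195%, 0.189% and 0.159%. DESeq2 called no member either, and it called 101, 63 and 82 genes where edgeR called 32, 31 and 26. An unadjusted p under 0.05 was reached by 1 member in Aro5 males, by none in BPA5 or CPF3 males, and by 11.8%, 9.1% and 12.6% of all genes.

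The member in Aro5 males was Grin2a. It had 2.50 CPM in the lowest, 5.56 at the median and 7.78 CPM in the highest of the 6 pups, against 1.82, 4.10 and 5.26 CPM in the 9 controls. The groups overlapped, and 3 of the 6 Aro5 pups lay above every control. Of those 3, pups 120-1y at 6.52 CPM and 120-2y at 7.78 CPM were littermates. The log2 fold change was 0.61 (SE 0.24, unadjusted p = 0.0179, adjusted p = 0.307 by edgeR). Within the dissection window it was 0.88 (adjusted p = 0.0837), and with the library name form as a covariate it was 0.22 (adjusted p = 0.9997). The window leaves out 2 of the 6 Aro5 males and 3 of the 5 CONSC males, and keeps 120-1y and 120-2y. Grin2b in Aro5 males had 6.86, 9.70 and 12.5 CPM in the lowest, median and highest pup against 6.67, 8.20 and 13.0 CPM in controls, or 0.20 in log2 (SE 0.14, adjusted p = 0.641). Markers of neocortex summed to 343 to 512 CPM in Aro5 males and 253 to 394 CPM in control males. Their part in these values was not tested.

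In BPA5 males the log2 fold change was 0.35 for Grin2a (SE 0.24, adjusted p = 0.636) and -0.02 for Grin2b (SE 0.14, adjusted p = 0.978). In CPF3 males it was 0.24 for Grin2a (SE 0.24, adjusted p = 0.678) and 0.15 for Grin2b (SE 0.14, adjusted p = 0.669). With the name form as a covariate, Grin2a was at -0.04 in BPA5 and -0.15 in CPF3 males. In males that covariate rests on 1 control library of form B, here and for Aro5, so that a high dose and the name form cannot be told apart beyond that library. Over the 6 members tested, the median log2 fold change was 0.07 for Aro5, 0.07 for BPA5 and 0.08 for CPF3, and the median over all genes lay within 0.01 of 0 in each contrast.

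Lower doses were compared in males alone, across 16139 genes and with the same 9 controls. No member was called in Aro0.5, BPA0.5 or CPF1 males by edgeR or by DESeq2. Of all genes, 0.124%, 0.0434% and 0.0% were called by edgeR, or 20, 7 and 0 genes, where DESeq2 called 269, 39 and 0. An unadjusted p under 0.05 was reached by 2 members in Aro0.5 males and by none in the other groups, and by 18.5%, 8.58% and 2.0% of all genes.

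Grin2b had 6.40, 6.75, 6.83 and 7.05 CPM in the 4 Aro0.5 males. These pups lay close together at the low end of the controls, whose lowest pup had 6.67 CPM. The log2 fold change was -0.30 (SE 0.13, unadjusted p = 0.0299, adjusted p = 0.228 by edgeR). Grin2d had 54.6, 60.3, 73.4 and 77.5 CPM in the same pups against 50.04, 54.1 and 69.0 CPM in the lowest, median and highest control. Both ends of the Aro0.5 range lay above those of the controls, with 0.30 as the log2 fold change (SE 0.15, unadjusted p = 0.0477, adjusted p = 0.265). Thalamus markers summed to 731 to 1220 CPM (median 1130) in Aro0.5 males and 453 to 1280 CPM (median 611) in control males. Neocortex markers summed to 243 to 298 CPM (median 248) and 253 to 394 CPM (median 311) in these groups. Their part in these values was not tested.

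Grin2a had 1.89, 1.94, 3.00 and 3.94 CPM in Aro0.5 males, and differed from controls by -0.36 in log2 (SE 0.27, adjusted p = 0.464). In BPA0.5 males it was -0.18 for Grin2a (SE 0.28, adjusted p = 0.910) and -0.03 for Grin2b (SE 0.13, adjusted p = 0.972). In CPF1 males it was -0.25 for Grin2a (SE 0.28, adjusted p = 0.997) and -0.13 for Grin2b (SE 0.13, adjusted p = 0.997). Grin2a thus had a negative estimate at all 3 lower doses and a positive one at all 3 higher doses in males. These 6 contrasts share their controls and none of the estimates passed the test. Name form A goes with the low doses and form B with the high doses.

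High-dose females were compared with the 10 female controls across 16992 genes. No member was called in Aro5, BPA5 or CPF3 females by edgeR or by DESeq2, and edgeR called 0.0% of all genes in each of the 3 contrasts, where DESeq2 called 1, 1 and 3 genes. An unadjusted p under 0.05 was reached by 1 member in BPA5 females and by none in Aro5 or CPF3 females, and by 4.08%, 3.23% and 8.79% of all genes. The member was Grin2d, which had 82.4, 104, 114 and 116 CPM in the 4 BPA5 females. Of these pups, 3 stood above the highest of the 10 female controls, which had 59.1, 78.0 and 96.0 CPM at the lowest, median and highest. The log2 fold change was 0.43 (SE 0.15, unadjusted p = 0.0102, adjusted p = 0.925 by edgeR). Thalamus markers summed to 598 to 1253 CPM (median 799) in BPA5 females and 426 to 1075 CPM (median 634) in control females. Their part in this value was not tested.

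Grin2a in females stood in log2 at -0.26 in Aro5 (SE 0.35, adjusted p = 0.999), 0.12 in BPA5 (SE 0.37, adjusted p = 0.973) and 0.10 in CPF3 (SE 0.37, adjusted p = 0.957). Grin2b had 0.02 in Aro5 (SE 0.17, adjusted p = 0.999), 0.26 in BPA5 (SE 0.18, adjusted p = 0.925) and -0.07 in CPF3 (SE 0.19, adjusted p = 0.937). The 5 Aro5 females had 2.22, 2.87, 3.18, 4.72 and 7.03 CPM of Grin2a and lay within the range of the controls, 1.23 to 7.96 CPM.

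Whether the response to a high dose differed between the sexes was tested in 1 fit of 52 pups across 17282 genes. No member was called by edgeR or by DESeq2 for Aro5, BPA5 or CPF3, where 0.0984%, 0.0405% and 0.0463% of all genes were called by edgeR, or 17, 7 and 8 genes, where DESeq2 called 34, 15 and 16. An unadjusted p under 0.05 was reached by 1 member for Aro5 and by none for BPA5 or CPF3, and by 8.92%, 2.79% and 5.6% of all genes. This member was again Grin2a, whose log2 fold change in Aro5 females minus that in Aro5 males was -0.89 (SE 0.43, unadjusted p = 0.0457, adjusted p = 0.552 by edgeR). Within the dissection window it was -1.47 (adjusted p = 0.0923), the far end of 40 alternative fits. These ran from -1.47 to -0.71, with adjusted p values from 0.0923 to 0.824. The highest adjusted p came with 1 pup per litter and sex. None of these fits held the library name form, which in males goes with the high dose. With the form as a covariate, the fold change of Grin2a in Aro5 males alone was smaller, as given above. For Grin2b the difference was -0.20 for Aro5 (SE 0.23), 0.28 for BPA5 (SE 0.24) and -0.22 for CPF3 (SE 0.24). For Grin2a it was -0.23 for BPA5 (SE 0.44) and -0.16 for CPF3 (SE 0.45).

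CONF and CONSC pups were combined above, and the members did not separate the routes by either tool. In males, 0 of 6 members and 0.013% of 15387 genes were called by edgeR, with 0 members and 0.988% of genes at an unadjusted p under 0.05. In females, 0 of 6 members and 0.0% of 16618 genes were called by edgeR and 0 by DESeq2, with 0 members and 4.29% of genes at an unadjusted p under 0.05. The log2 fold change of CONSC against CONF was -0.36 for Grin2a (SE 0.27) and within 0.01 of 0 for Grin2b (SE 0.19) in males, and -0.64 for Grin2a (SE 0.39) and -0.34 for Grin2b (SE 0.19) in females.

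**Figure D3:**
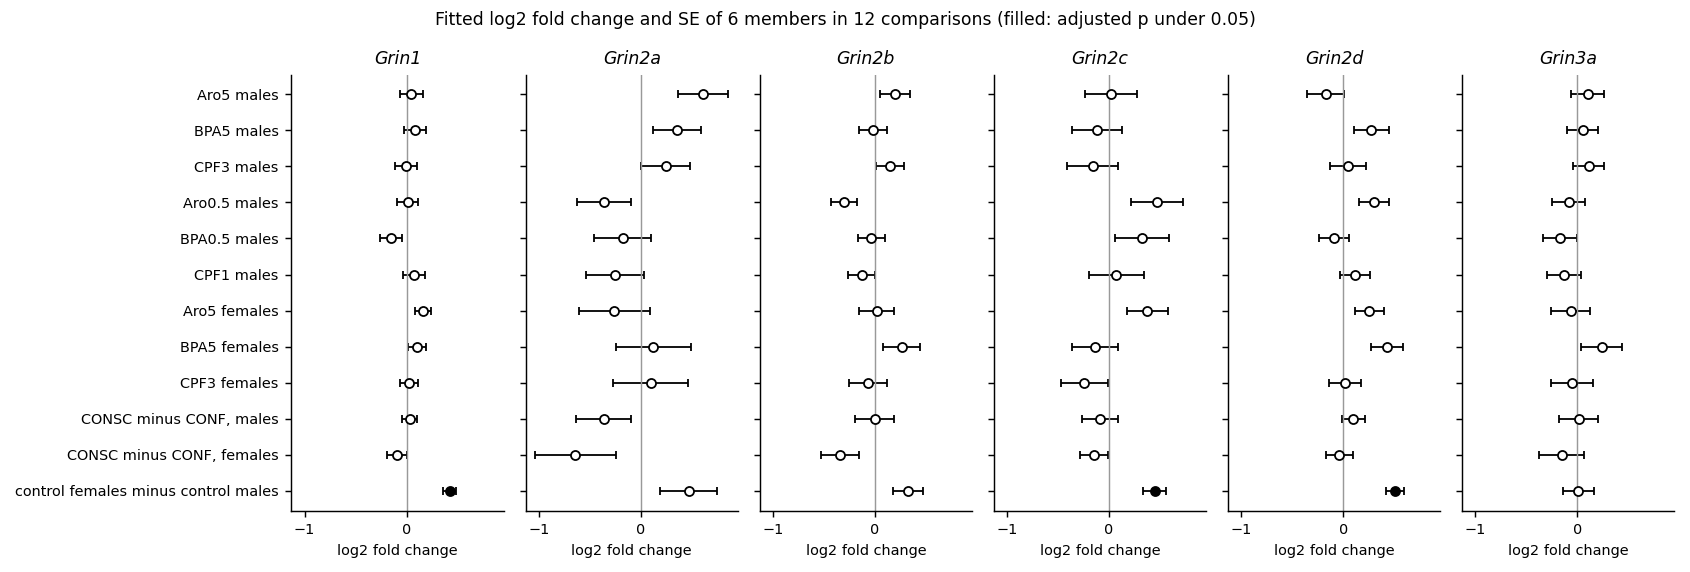
Log2 fold changes of 6 members (panels) in 12 comparisons (rows), with bars of 1 SE. The filled points, with an adjusted p under 0.05, are Grin1, Grin2c and Grin2d in control females against control males, and all other points are open.

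Control females and control males were compared across 15763 genes in 10 and 9 pups. This comparison called 3 of the 6 members, Grin1, Grin2c and Grin2d, all higher in females, by edgeR and by DESeq2. It also called 30.9% of all genes tested, and 17.8% of all genes tested were called higher in females, so that these calls stand among very many. An unadjusted p under 0.05 was reached by 4 members and by 40.8% of all genes. The median log2 fold change was 0.43 over the 6 members and -0.02 over all genes.

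Grin1, the obligatory subunit, had 182 CPM in the lowest, 207 at the median and 222 CPM in the highest control male. It had 224, 281 and 307 CPM in control females, and the sexes did not overlap by pup. Of the 2 libraries summed for male N2-2y, that of form B, at 227 CPM, lay above the lowest female. The log2 fold change was 0.42 (SE 0.06, adjusted p = 1.97e-05 by edgeR). Grin2d had 50.04, 54.1 and 69.0 CPM in control males and 59.1, 78.0 and 96.0 CPM in control females, with 8 of the 10 females above every male. Its log2 fold change was 0.51 (SE 0.09, adjusted p = 0.00015). Grin2c had 6.71, 10.6 and 13.9 CPM in control males and 10.9, 14.3 and 18.3 CPM in control females, with 7 females above every male. Its log2 fold change was 0.45 (SE 0.12, adjusted p = 0.00505). How many of all genes separate control females from control males to such a degree was not counted.

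Grin2b had 6.67, 8.20 and 13.0 CPM in control males and 6.59, 9.68 and 14.3 CPM in control females, which overlapped, with 0.32 as the log2 fold change (SE 0.15, unadjusted p = 0.0395, adjusted p = 0.102). With the litter as a block, in the 7 litters with a control pup of each sex, its adjusted p was 0.03998, and in the same 14 pups without the block it was 0.0253. Grin2a gave 0.47 (SE 0.28, adjusted p = 0.215) and Grin3a 0.01 (SE 0.15, adjusted p = 0.978), with Grin3a at 30.5 to 61.4 CPM in males and 21.7 to 63.1 CPM in females. Leaving out CONSC female 9-1x brought Grin2a and Grin2b to adjusted p values of 0.0461 and 0.0271, and leaving out CONSC male 10-2y brought Grin2b to 0.0298. Within litters, Grin1 and Grin2d were higher in the sister in 7 of 7 litters, Grin2b and Grin2c in 6, and Grin2a and Grin3a in 4. How many of all genes were higher in the sister in each litter was not counted. In litters N3, 6 and 8 the sister's library had name form B and the brother's form A.

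The library name forms bear on these values, since 9 of 10 control male libraries and 5 of 11 control female libraries have form A. In the libraries of form A alone, 11.7% of all genes were called and the log2 fold changes were 0.31 for Grin1 (adjusted p = 0.0152), 0.45 for Grin2d (adjusted p = 0.0228) and 0.39 for Grin2c (adjusted p = 0.134), so that the call for Grin2c was lost. With the form as a covariate they were 0.33 (adjusted p = 0.000417), 0.45 (adjusted p = 0.003) and 0.37 (adjusted p = 0.0408), and 18.9% of all genes were called. Sex and any other difference between the processing of male and female tissue cannot be told apart here. Among the markers tested, Tbr1, a transcription factor of deep cortical neurons, was higher in control females by 0.96 in log2 (SE 0.28, adjusted p = 0.011 by edgeR). The other neocortex genes did not pass, with 0.53 for Cux2 (adjusted p = 0.0649), 0.49 for Fezf2 (adjusted p = 0.174), 0.08 for Cux1 and -0.04 for Rorb. The astrocyte genes Slc1a3 and Gja1 were lower by edgeR, with log2 fold changes of -0.17 (adjusted p = 0.0123) and -0.18 (adjusted p = 0.0487). The other 4 of the 6 astrocyte genes did not pass and had estimates above 0, with 0.53 for Slc1a2 (adjusted p = 0.0987), 0.15 for Gfap, 0.05 for Aqp4 and 0.02 for Aldh1l1. The 3 endothelial markers in the files summed to 83.9 to 107 CPM in control females and 58.7 to 79.0 CPM in control males. The oligodendrocyte lineage list, described further on, summed to 503 ± 44.3 CPM (SD, n = 10) in control females and 456 ± 42.2 CPM (SD, n = 9) in control males, and the ranges overlapped. Markers of dividing cells summed to 88.9 ± 10.1 CPM (SD, n = 10) and 103 ± 9.46 CPM (SD, n = 9), also with overlap. The part of these markers in the members' values was not tested.

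**Figure D4:**
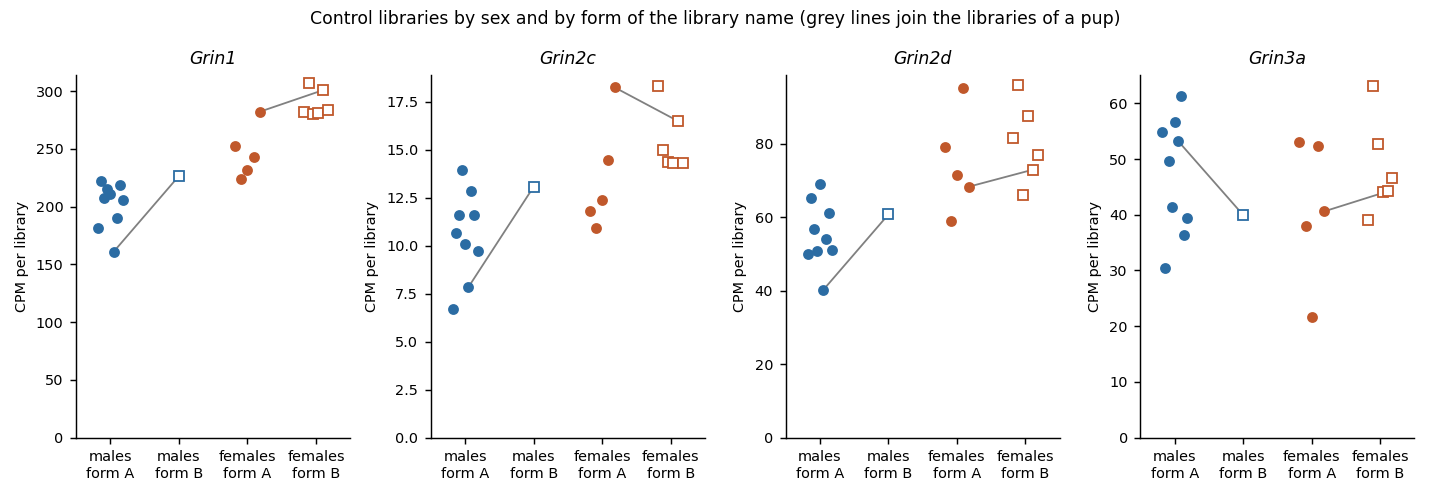
CPM per library of Grin1, Grin2c, Grin2d and Grin3a in control males and females, split by the form of the library name, with grey lines between the 2 libraries of a pup. Grin1 of form A is at 161 to 222 CPM in males, and at 224 to 282 CPM in females, and the form B library of male N2-2y is at 227 CPM.

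Genes that act with the receptor were taken as 4 lists of 45 genes, of which 44 were tested. They handle the co-agonists, carry and anchor the receptor, signal downstream of it, or govern the exchange of its subunits. Outside the comparison of the sexes, 1 of these genes was called in any contrast. This was Nos1, the neuronal nitric oxide synthase that is tethered to the receptor by PSD-95, in Aro0.5 males. It had 8.02 CPM in the lowest, 9.75 at the median and 12.6 CPM in the highest of 4 pups, all below the 15.03 to 23.7 CPM of the 9 control males. Its log2 fold change was -0.78 (SE 0.14, adjusted p = 0.023 by edgeR). The call was lost when any 1 of the 4 Aro0.5 males or the control males N2-2y, 11-4y or 13-1y was left out, against the CONF controls alone (adjusted p = 0.255), within the dissection window (adjusted p = 0.156), and with the name form as a covariate (adjusted p = 0.0637). BPA0.5 males, at 10.4 to 13.8 CPM, also lay below all control males, and their contrast did not pass the test. The interneuron list summed to 287 to 320 CPM in Aro0.5 males and 301 to 490 CPM in control males. Of its genes, Gad2 had a log2 fold change of -0.67 in Aro0.5 males (unadjusted p = 0.00177, adjusted p = 0.124 by edgeR) and Gad1 of -0.23 (adjusted p = 0.373). Their part in the value of Nos1 was not tested.

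Between control females and control males, 16 of the 44 genes were called, 11 higher and 5 lower in females, beside the 30.9% of all genes. Higher in females were 6 of the 16 downstream genes, among them Camk2a, the calcium-dependent kinase that binds GluN2B, with 0.47 (adjusted p = 0.00295). The others were the kinase genes Camk2g, with 0.48 (adjusted p = 0.00958), Camk2b, with 0.29 (adjusted p = 0.00383), Src, with 0.23 (adjusted p = 0.00166), and Csnk2b, with 0.22 (adjusted p = 0.00921), and Nos1, with 0.42 (adjusted p = 0.0416). Lower in females were Csnk2a1, a casein kinase subunit, by edgeR's log2 fold change of -0.25 (adjusted p = 6.64e-05), and Ppp3ca, the calcineurin subunit, with -0.18 (adjusted p = 0.0478). Of 13 trafficking and scaffold genes, 3 were higher and none lower, Lin7b with 0.55 (adjusted p = 6.17e-05), Grina with 0.32 (adjusted p = 0.000664) and Dlg4, which encodes PSD-95, with 0.17 (adjusted p = 0.0164). Of 6 co-agonist genes tested, Phgdh and Shmt2 were higher, with 0.30 (adjusted p = 0.00916) and 0.21 (adjusted p = 0.00692), and Srr, the serine racemase, was lower, with -0.13 (adjusted p = 0.00996). Of 9 regulators of the subunit exchange, Ezh2 and Sp1 were lower, with -0.29 (adjusted p = 0.0099) and -0.25 (adjusted p = 0.00615). In libraries of form A alone, 4 of these 16 genes were called, and with the form as a covariate 7. With the litter as a block 11 of the 16 were called, against 14 in the same litters without the block, and within the dissection window 11. Among those lost were Sp1 with the litter block (adjusted p = 0.182) and Phgdh in the window (adjusted p = 0.0599). Of all genes, 11.7% were called in form A alone, 18.9% with the covariate and 23.2% in the window. With the litter block 20.2% were called, and 26.5% in the same litters without it. The 16 genes were picked by their call in the main fit.

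Members did not vary as 1 block between the pups of a group. Correlations are Pearson's r of log2(CPM + 0.5) over the 64 pups, each taken as its deviation from its group mean, and are descriptions across pups whose libraries differ in depth and tissue. Grin1 went with Grin2c (r = 0.68) and Grin2d (r = 0.47), and Grin2a with Grin2b (r = 0.56) and Grin3a (r = 0.51). Grin1 with Grin2b (r = 0.10) and Grin2c with Grin2b (r = 0.05) were near 0. Over 14702 genes with a mean of at least 1 CPM, the 3 most like each member were Ncdn, Fbxl16 and Vwa5b2 for Grin1 (highest r = 0.94), Scn8a, LOC691920 and Lancl1 for Grin2a (0.90), and Trio, LOC100912577 and Frmd4a for Grin2b (0.79). They were Gpr37l1, Cx3cl1 and Mbp for Grin2c (0.83), Ache, Chga and Vsig10l for Grin2d (0.92) and Rims1, Pcdh9 and Sphkap for Grin3a (0.91).

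The members were also set against the summed CPM of 5 marker lists, on the same scale, in 35 relations. They were picked once the data were known. The p values come from 100000 permutations within groups and are adjusted over the 35. Grin2c rose with the oligodendrocyte lineage list (Pdgfra, Cspg4, Olig1, Olig2 and Mbp), with r = 0.72 and rho = 0.74 over 64 pups (permutation p = 1e-05 for both, the smallest they can give, adjusted p = 7e-05 and 8.75e-05). Without the 2 pups farthest from the median of the list r was 0.71. Within the library sets r was 0.70 in 21 males of form A, 0.85 in 20 high-dose males, 0.43 in 10 control females and 0.57 in 13 high-dose females. Grin1 rose with the same list, with r = 0.53 and rho = 0.48 (permutation p = 5e-05 and 0.00034, adjusted p = 0.000219 and 0.00149) and r = 0.51 without 2 pups. Within the library sets r was 0.73 in males of form A, 0.62 in high-dose males, 0.13 in control females and 0.15 in high-dose females, so that it was weak in both sets of females.

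Grin3a rose with the thalamus list, with r = 0.71 and rho = 0.72 (permutation p = 1e-05 for both, adjusted p = 7e-05 and 8.75e-05) and r = 0.69 without 2 pups. It fell with the interneuron list (Gad1, Gad2, Lhx6, Sst, Pvalb, Dlx1 and Dlx2), with r = -0.64 and rho = -0.58 (permutation p = 1e-05 and 3e-05, adjusted p = 7e-05 and 0.00021) and r = -0.56 without 2 pups. Grin2d also rose with the thalamus list, with r = 0.60 and rho = 0.61 (permutation p = 3e-05 and 1e-05, adjusted p = 0.00015 and 8.75e-05) and r = 0.57 without 2 pups. Within the 4 library sets the relation with thalamus lay between 0.64 and 0.82 for Grin3a and between 0.45 and 0.92 for Grin2d.

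Grin2b rose with the neocortex list, with r = 0.53 and rho = 0.50 (permutation p = 1e-05 and 0.00017, adjusted p = 7e-05 and 0.00085), r = 0.51 without 2 pups and 0.48 to 0.73 within the library sets. The log2 balance of Grin2b to Grin2a fell with the astrocyte list (Slc1a3, Slc1a2, Aqp4, Aldh1l1, Gfap and Gja1), with r = -0.60 and rho = -0.57 (permutation p = 1e-05 for both, adjusted p = 7e-05 and 8.75e-05). It was -0.54 without 2 pups and -0.75 to -0.48 within the library sets. Grin2a itself rose with that list, with r = 0.52 and rho = 0.51 (permutation p = 2e-05 and 0.00012, adjusted p = 0.000117 and 0.0007), r = 0.47 without 2 pups and 0.44 to 0.65 within the library sets. Grin2d fell with the neocortex list, with r = -0.40 and rho = -0.40 (permutation p = 0.00497 and 0.00477, adjusted p = 0.0193 and 0.0167), r = -0.37 without 2 pups and -0.64 to -0.06 within the library sets. Grin2c rose with the astrocyte list, with r = 0.42 and rho = 0.41 (permutation p = 0.00605 and 0.00332, adjusted p = 0.0212 and 0.0129), r = 0.37 without 2 pups and 0.17 to 0.83 within the library sets. Between pups of 1 group, each of the 6 members tested thus varied together with at least 1 of the lists. The part of tissue make-up in the comparisons of groups was not tested.

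**Figure D5:**
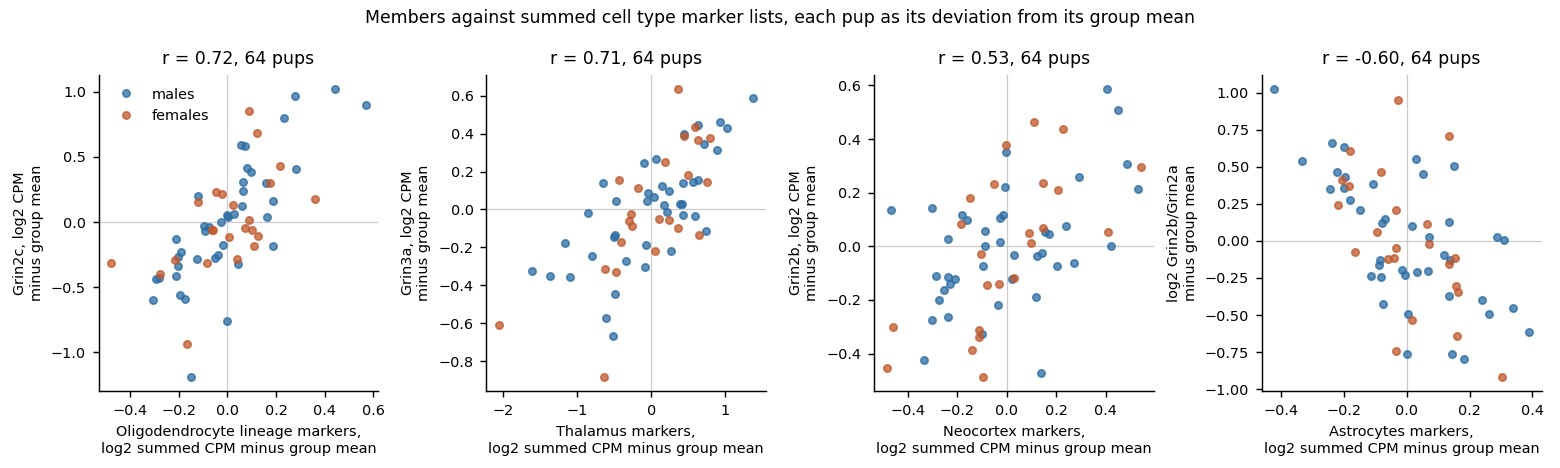
Members (vertical, log2 CPM or log2 ratio) against the summed CPM of a marker list (horizontal, log2), both as deviations from the group mean, for 64 pups. Grin2c rises with the oligodendrocyte lineage list, Grin3a with the thalamus list and Grin2b with the neocortex list, and the Grin2b to Grin2a balance falls with the astrocyte list.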

How the data were processed

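RNA of dorsal hippocampus from 64 pups was sequenced in 66 libraries made with a stranded mRNA kit. The authors aligned reads to Rnor_6.0 with STAR and deposited featureCounts counts per gene, which are raw. The submitters' processing notes also name kallisto, with no role. Versions, the strand setting and the treatment of multimapping reads are not given in the sources used here. Where a pup had 2 libraries, these were added up. CPM are counts per 1000000 counts of the library.

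Groups were compared by edgeR 4.0.16 (R 4.3.3), with TMM scaling, filterByExpr and the quasi-likelihood test, and Benjamini-Hochberg adjustment over all genes tested. High-dose males, low-dose males and high-dose females were each fitted with the controls of their sex. CONF and CONSC were combined. The balance was tested by 2-sided exact permutation, with p the share of splits whose absolute difference of means reached the observed one (Python 3.11.15, numpy 2.4.6). Replicates are separate pups, and in the main tests littermates counted as separate replicates.

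The genes, lists and tests were chosen with earlier results of these data known. Some genes of the lists are not reported here and were left out of them. The text names all members, every gene of the pathway lists that was called, and the 3 genes most alike to each member. On simulated counts, the fit for Aro5 males recovered 76% of 100 genes changed by 1.5-fold and 94% of 100 changed by 2-fold, over 16298 genes, and the fit for control females against males 81% and 98% over 15671 genes. The changed genes were drawn at random above a minimum mean count, and all were changed at once. These shares therefore do not give the chance of a call for a single member, such as Grin2a, which varied most between pups.

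Alternatives were DESeq2 1.42.0, its size factors, no filter beyond 1 count, the dissection window, libraries counted separately, controls of 1 route, the name form as a covariate, 1 pup per litter, and leaving out each pup in turn. The labels pair control brothers and sisters by litter. Over 7 litters with both, their deviations from the group means correlated from -0.423 to 0.326, with a median of -0.158.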

Additional observations from a re-analysis of the deposited data

Results flagged for a closer look

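Of 91 combinations of a group of 4 to 7 pups and a quantity examined, 6 held a pup far from the others of its group. Chance flags about 1 in 20 groups. Grin1 was at 242.8 CPM in CONF female N2-4x, while the other 4 pups lay between 280.2 and 289.2 CPM. Grin2b was at 13.02 CPM in CONSC male 10-2y, above 6.674 to 8.351 CPM in the others, and at 13.64 CPM in CPF3 male 35-5y, above 7.713 to 10.26 CPM. Grin2c was at 17.6 CPM in CONF female N4-3x, above 14.29 to 14.45 CPM, and at 26.5 CPM in Aro0.5 male 98-8y, above 9.356 to 10.54 CPM. Grin2d was at 101.5 CPM in CPF3 male 36-3y, above 45.13 to 60.76 CPM.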

How the results depend on the processing

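No member was called in the 14 comparisons other than that of the sexes under any setting run. These made up 451 pairs of a setting and a comparison, the main fits among them, and 2720 member tests. The lowest adjusted p was 0.0818, for Grin2a in Aro5 males without pup 108-1y. Between control females and males, 3 members were called, 3 to 5 when 1 pup was left out, and 4 with the litter as a block. Of all genes, 30.9% were called in the main fit and 20.2% with the block. In libraries of form A alone the call for Grin2c was lost, and 11.7% of all genes were called. In the tests of the sexes' difference in response the litter block was fitted by limma-voom (limma 3.58.1) in place of edgeR. It changed no call of a member there. For control females against males the balance was -0.10 with the litter block. Of the 16 pathway genes called between the sexes, 14 were called with no filter beyond 1 count, and 11 with the litter block and in the dissection window. The shares of all genes called in these settings were 16.1%, 20.2% and 23.2%.

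Of 1548 alternative values of fold changes, 40 changed sign, in 14 results, none of them called (lowest adjusted p 0.636). With the name form as a covariate, Grin2a was at -0.0351 in BPA5 and -0.15 in CPF3 males. With control libraries of both sexes in that fit, Grin2a was at -0.14 in BPA5 and -0.24 in CPF3 males, and Grin2b at -0.0657 in Aro5 and -0.11 in CPF3 males. In the dissection window, Grin2b was at 0.0733 in BPA5 males, 0.0236 in BPA0.5 males and 0.022 in CPF3 females, and Grin2a at -0.0774 in CPF3 females. Against controls of the same route, Grin2b was at -0.14 in Aro5 and 0.12 in CPF3 females, Grin2a at -0.15 in BPA5 females, and the balance at -0.0363 in CPF1 males. Libraries counted separately gave Grin2b at -0.0196 in Aro5 females. In libraries of form A the balance of the sexes was 0.0826. The causes were not tested.

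When 1 pup was left out, Grin2a ranged from -0.492 to 0.00782 in BPA0.5 males, -0.201 to 0.369 in BPA5 females and -0.0778 to 0.205 in CPF3 females. Its difference between the sexes ranged from -0.553 to 0.0132 for BPA5 and -0.339 to 0.00206 for CPF3. Grin2b ranged from -0.0746 to 0.0714 in BPA5 males, -0.079 to 0.0574 in BPA0.5 males, -0.0484 to 0.0915 in Aro5 females, -0.193 to 0.0223 in CPF3 females and -0.208 to 0.0881 in CONSC against CONF males. The balance ranged from -0.0768 to 0.283 in Aro0.5 males, -0.0618 to 0.248 in CPF1 males, -0.271 to 0.0336 in CPF3 males, -0.0846 to 0.198 in BPA5 females and -0.174 to 0.0513 between the sexes. Grin2a had 24 counts in its lowest pup, and Grin3b, with 53 counts in all, could not be tested.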
